A study of Mus musculus with 16 samples.

Results

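The transcriptome of mouse cardiac fibroblasts was described in the 3 control libraries from hearts without injury, out of 16 libraries in 6 groups. They were chosen by their labels, and their own values are described with no contrast to another group. The mice carried Tcf21-MerCreMer, a Cre recombinase that tamoxifen switches on in cells where Tcf21 is active, and a Rosa26 reporter in which Cre removes a stop cassette before enhanced green fluorescent protein. They were 8 to 12 weeks old, received tamoxifen and no infusion, and their green fibroblasts were sorted by flow cytometry 2 weeks later. The other 5 groups carried a deletion of Tcf21, an added TCF21, or a Cre alone with an infusion of angiotensin II and phenylephrine, and are not analysed here. The sort selected cells by activity of the Tcf21 driver, so the presence of Tcf21 in these libraries is part of how the cells were chosen. The labels do not say whether the driver leaves both copies of Tcf21 intact, nor whether the libraries came from separate animals. The spread between libraries may thus be technical.

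Cardiac fibroblasts lie between the muscle cells of the heart and build and renew its matrix of collagens, proteoglycans and elastic fibres. They also secrete growth factor binding proteins, complement factors and chemokines, and they turn into contractile, matrix-producing myofibroblasts after injury. The product of Tcf21 is a transcription factor of the bHLH class that marks this lineage from the epicardium on, and Pdgfra, a receptor for platelet-derived growth factor, marks resting fibroblasts of the heart.

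The table lists 18634 genes, and the normalized counts of the libraries summed to 37859205, 37760661 and 37746463. To compare genes with each other, each normalized count was divided by transcript length, and the results were scaled to 1000000 per library over the 16036 genes with a known length. This quantity is called the per-length level below, or level. A level of 1 stood for 14.6 to 15.1 normalized counts per kilobase. Across the 15478 genes with a mean of at least 10 normalized counts, Pearson's r of log2 values was 0.983 for every pair of libraries, which is a correlation across genes within these libraries. The libraries differed slightly with transcript length. Spearman's rho between transcript length and a gene's log2 ratio to the other libraries was -0.42 in library 1, 0.089 in library 2 and 0.35 in library 3, over 11130 genes.

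A small set of secreted and cytoskeletal products filled much of the transcriptome. The median level of all genes was 12.5, 8637 genes reached a level of 10, 1798 reached 100 and 103 reached 1000. The 100 highest genes held 32.3% ± 0.439 of the level (SD, n = 3), and 428 genes held 50% of it. Gsn, which encodes the actin-severing protein gelsolin, led in all 3 libraries (gene ENSMUSG00000026879, chromosome 2, 35256380 to 35307892, plus strand, GRCm38). It held 7.43%, 7.38% and 6.82% of the level in libraries 1, 2 and 3, or 2929910, 2831792 and 2596294 normalized counts. Library 3 was the lowest of the 3. Dcn, the small proteoglycan decorin that binds collagen fibrils, followed with levels of 27501.9, 26654 and 27937 (chromosome 10, 97479609 to 97518143, plus strand). The levels of the 3 libraries lay close together, at 27364 ± 653 (SD, n = 3), and the ratio of Gsn to Dcn was 2.64 ± 0.173. With the longest annotated transcript in place of the principal one, the mean level of Dcn was 11541, still second in order.

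Below these leading genes the levels fell off without gaps. Of the 24 pairs of neighbours among the 25 highest genes, 22 overlapped in the ranges of their 3 libraries, and only Gsn with Dcn and Dcn with Mgp lay apart. Mgp, an inhibitor of calcification in soft tissue, had a level of 6501 ± 193 (SD, n = 3). It was followed by Fos (6105 ± 782), the complement C1 inhibitor Serping1 (5462 ± 121), the ferritin light chain Ftl1 (5066 ± 262) and the secreted glutathione peroxidase Gpx3 (4973 ± 324). Col3a1, the chain of type III collagen, had rank 8 with levels of 4385, 5328 and 4330 (chromosome 1, 45311538 to 45349706, plus strand). Library 2 was the high one for Col3a1, and the other two were nearly level. Of the 25 genes, 8 belonged to the matrix lists, 4 to the signalling lists and 1, Fos, to the transcription factor lists. Those outside the lists included the protease inhibitor Cst3, the polyubiquitin gene Ubb, the interferon-inducible membrane protein Ifitm3, the lipid carrier Apoe and the class I histocompatibility light chain B2m. The libraries had 23 of the 25 and 93 of the 100 highest genes in common.

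**Figure D1:**
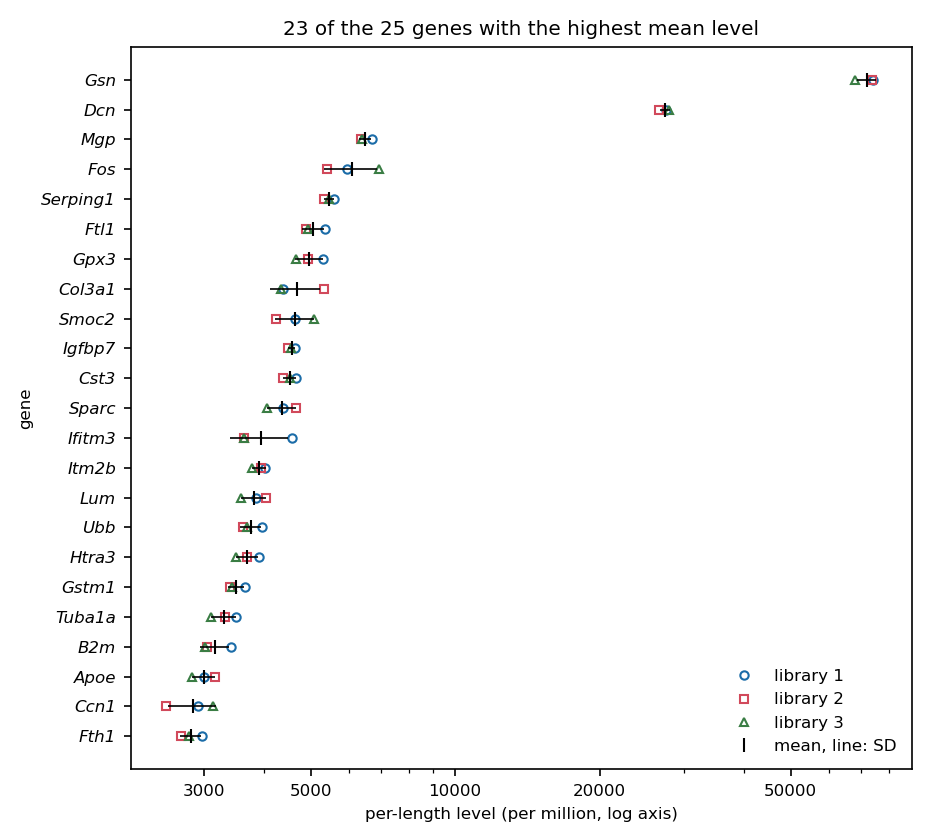
Per-length level (scaled to 1000000, log axis) of 23 of the 25 genes with the highest mean, with 1 symbol for each of the 3 libraries, a tick at the mean and a line for the SD. Gsn at 72124 and Dcn at 27364 stand clear of the rest, which run from 6501 for Mgp to 2813 for Fth1 with overlapping ranges.

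Matrix genes held the largest share of the blocks described. The 225 listed members of 12 matrix lists together held 12.0% ± 0.165 of the level (SD, n = 3), with 11.8%, 12.1% and 12.1% in libraries 1, 2 and 3. Of these members 188 reached a level of 1, 151 reached 10 and 28 reached 1000, and their median was 74.6 against 12.5 for all genes. The small leucine-rich proteoglycans held 3.76% ± 0.055, of which Dcn alone made up 72.7%. The other leading members were Lum at a level of 3816 ± 227 and Bgn at 2722 ± 106, which encode lumican and biglycan, then Prelp at 1393 ± 79.3 and Ogn at 1275 ± 116. Matricellular and adhesive glycoproteins, secreted proteins that tune how cells meet the matrix, held 3.70% ± 0.076. Beside Mgp they were led by the calcium-binding Smoc2 (4649 ± 424), Igfbp7 (4496 to 4638 over the libraries), Sparc (4361 ± 302) and Ccn1 (2850 ± 324). Sparc encodes a collagen-binding protein and Ccn1 an integrin ligand.

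Collagen chains held less of the per-length level than the small leucine-rich proteoglycans, but nearly as much of the normalized counts. All 39 collagen chain genes with a level held 1.23%, 1.44% and 1.32% of the level in libraries 1, 2 and 3. With no division by length, all collagen chains held 2.86% of the normalized counts and the fibrillar chains 1.84%, against 2.95% for the small leucine-rich proteoglycans. Among the fibrillar chains Col3a1 was 4.19 ± 0.394 times Col1a1, and Col1a2 was 1.52 ± 0.0592 times Col1a1 on the per-length scale (SD, n = 3). Both genes encode chains of type I collagen, whose protein holds more of the Col1a1 product than of the Col1a2 product. Col1a2 had levels of 1562, 1859 and 1693, and Col1a1 had 991, 1208 and 1159, with no overlap between the genes. The type V chains that start fibrils followed, with Col5a1 at 266 ± 16.3, Col5a3 at 261 ± 36.3 and Col5a2 at 180 ± 17.3. The cartilage fibrillar chains Col11a1 and Col11a2 were below a level of 1. Of the 6 fibrillar chains with a level of at least 10, 5 were highest in library 2 and 1, Col5a3, in library 3. Of all 8637 genes at that level, 30.3% were highest in library 2 and 40.5% in library 3. The beaded filament chains of type VI collagen stood at 1693 ± 82.8 for Col6a1, 1190 ± 39.2 for Col6a2 and 287 ± 47.9 for Col6a3. The basement membrane chains Col4a1 and Col4a2 had levels of 746 ± 64.6 and 272 ± 36.9, a ratio of 2.75 ± 0.164.

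Basement membrane linkers and laminins held 0.997% ± 0.074 of the level. Smoc2, which is also counted in the matricellular list, made up 46.6% of that share. Next came Nid1 at 2019 ± 162, which encodes the linker nidogen. The laminin chains of the list were led by Lamc1 (1090 ± 142), Lamb1 (879 ± 90.3), Lama4 (467 ± 49.0) and Lama2 (323 ± 69.2). Elastic fibre genes held 1.06% ± 0.048, and 16 of their 23 members reached a level of 100. Ltbp4, which tethers latent TGF-beta to elastic fibres, stood at 2384 ± 39.5, followed by Mfap5 (1628 ± 146) and the fibulins Fbln2 (1587 ± 95.1) and Fbln1 (758 ± 69.1). The machinery that folds and crosslinks collagen held 0.632% ± 0.020, led by the collagen chaperone Serpinh1 at 1787 ± 119 and the prolyl isomerase Ppib at 761 ± 7.72. Matrix metalloproteinases held 0.388% ± 0.013, of which Mmp2, a gelatinase, made up 69.6% at a level of 2699 ± 93.5. Their inhibitors held 0.351% ± 0.015, of which Timp2 made up 70.4%, and the ratio of Timp2 to Mmp2 was 0.917 ± 0.0295. Timp3 followed at 946 ± 123 and Timp1 at 94.9 ± 11.4, while Timp4 was at 0.172 ± 0.0344.

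**Figure D2:**
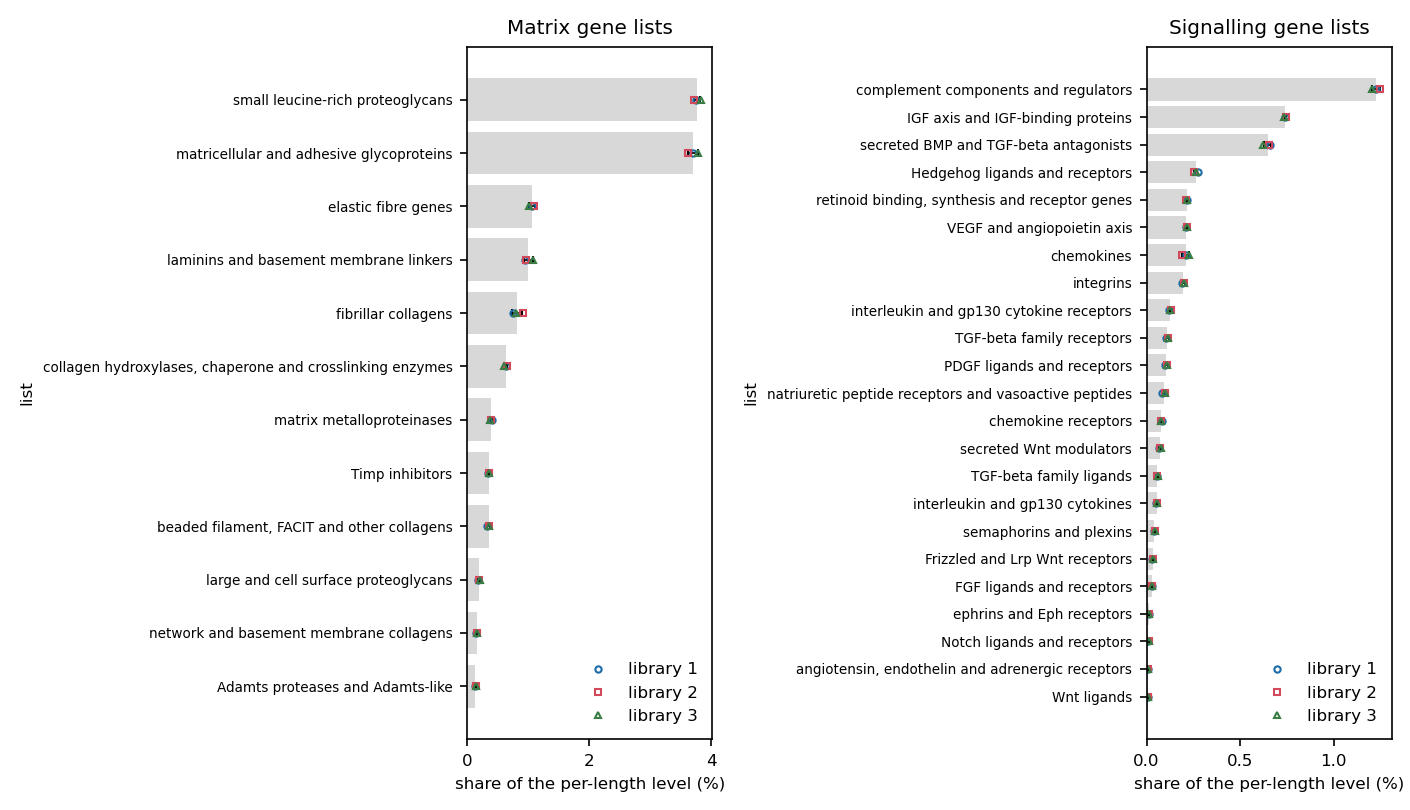
Share of the per-length level (percent) held by each matrix list on the left and each signalling list on the right, on axes of different range. Bars are means, thin lines the SD and symbols the 3 libraries. Small leucine-rich proteoglycans at 3.76% and matricellular glycoproteins at 3.70% exceed every other list drawn, and Wnt ligands hold the least.

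Signalling genes were led by secreted binding proteins and inhibitors rather than by ligands. The 365 members with a level in 23 lists held 4.55% ± 0.0291 (SD, n = 3), and 184 of them reached a level of 10. Igfbp7 and Nbl1 stand in both the matrix and the signalling lists and held 0.490% of the level. Complement components and regulators held the largest share of these lists, 1.23% ± 0.022. Serping1, which restrains the classical pathway, had levels of 5581, 5339 and 5465. C3, the central component, stood at 1363 ± 150 and was highest in library 2 at 1536. The proteases C1s1 and C1ra, which start the classical pathway, were at 584 ± 14.3 and 554 ± 28.6.

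The IGF axis held 0.738% ± 0.006, of which the binding protein Igfbp7 made up 61.8%. Igfbp4 was at 1276 ± 62.3, Igfbp6 at 715 ± 35.7 and Igfbp3 at 369 ± 64.1, and the growth factor Igf1 itself was at 321 ± 21.9. Secreted antagonists of BMP and TGF-beta held 0.647% ± 0.019, led by the serine protease Htra3 at 3694 ± 199 and by Fstl1 at 1349 ± 75.1. The TGF-beta family ligands together held only 0.057% ± 0.002. Their highest members were Tgfb3 (158 ± 18.4), Bmp4 (132 ± 4.96) and Bmp6 (102 ± 6.79), with Tgfb2 at 35.8 ± 3.18. Tgfb1 was at 23.5 ± 1.53. On the receptor side Tgfbr2, the ligand-binding kinase, was at 408 ± 17.8 and Tgfbr3, the co-receptor betaglycan, at 210.4 ± 19.7. Tgfbr1, the partner kinase, was at 76.2 ± 7.44, so that Tgfbr2 was 5.37 ± 0.434 times Tgfbr1.

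Pdgfra had levels of 479, 541 and 559 (chromosome 5, 75152292 to 75198215, plus strand). The receptor gene Pdgfrb, which also stands on the list of mural markers, was at 273 ± 19.6. The ratio of Pdgfra to Pdgfrb was between 1.90 and 1.95 in the 3 libraries. The ligand gene Pdgfd was at 52.0 ± 6.58, Pdgfa at 5.07 ± 1.05 and Pdgfc at 0.370 ± 0.0877. Gas1, a Hedgehog co-receptor, was at 2502 ± 95.1 and made up 95.1% of its list. The other leading Hedgehog genes were the transducer Smo at 63.9 ± 2.97 and the co-receptor Boc at 41.1 ± 1.17. With its longest transcript the level of Gas1 was 1098. Of the Wnt genes, the 11 ligands held 0.009% of the level, with Wnt11 highest at 32.8 ± 1.81. The secreted modulators held 0.071%, with Sfrp1 at 228 ± 19.8, Dkk3 at 153 ± 13.0 and Frzb at 151 ± 5.44.

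Chemokines held 0.212%, 0.188% and 0.227% of the level in libraries 1, 2 and 3. Cxcl1, which attracts neutrophils, led with levels of 792, 570 and 845. Library 2 was lowest for Cxcl1 by a clear margin. Cxcl14 was at 275 ± 22.3, Ccl7 at 274 ± 56.8, Ccl11 at 213 ± 17.4 and Cxcl12 at 154 ± 6.91. Among the chemokine receptors the scavenger Ackr3 made up 80.1% of the list at 623 ± 48.2. The leading cytokine genes were the macrophage growth factor Csf1 at 182 ± 15.6 and Il17d at 108 ± 4.91. In the retinoid list Rarres2 was at 926 ± 26.9, and the retinoic acid synthesis genes Aldh1a1 and Aldh1a2 were at 565 ± 19.6 and 196 ± 34.4. Angptl2 led the VEGF and angiopoietin list at 843 ± 22.4, ahead of Vegfa at 260.2 ± 34.1. The place of Vegfa depends on the division by length. In normalized counts Vegfa had 2407, 2288 and 2859, below Tek at 15280, 15347 and 15432 and Nrp1 at 12009, 11718 and 12408.

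The integrins, which anchor cells to the matrix, were led by the beta chains Itgb5 at 696 ± 23.1 and Itgb1 at 625 ± 45.1. The alpha chain Itga5 was at 91.7 ± 4.38 and Itgav at 83.7 ± 12.1. Of the vasoactive genes, Ace, which makes angiotensin II, was at 503 ± 47.9, and the peptide gene Adm at 295 ± 23.2. Of the receptor genes for angiotensin II and for adrenergic agents, Agtr1a was at 15.4 ± 0.734, near the median of all genes, and Adra1a at 1.98 ± 0.459.

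The transcription factor lists held 3.13% ± 0.291 of the level (SD, n = 3), with 3.03%, 2.90% and 3.46% in libraries 1, 2 and 3. The larger part came from 18 immediate early genes, which held 1.69% ± 0.239, while the other 321 factors held 1.44% ± 0.0555. Fos, a subunit of the AP-1 factor, had levels of 5941, 5418 and 6955 and was 14.7 ± 2.32 times Tcf21. Library 3 was the highest and library 2 the lowest for Fos. Its partners Junb and Jun were at 2424 ± 298 and 1937 ± 224, and the zinc finger factor Egr1 at 2341 ± 403. They were followed by Id3 (1085 ± 165), Jund (995 ± 168), Klf2 (908 ± 121), Nr4a1 (863 ± 154) and Tsc22d3 (636 ± 148). Tcf21 had rank 10 among the 339 members of these lists with a level, and rank 320 among all genes. Its levels were 408, 434 and 406 (chromosome 10, 22817281 to 22820174, minus strand). Its mean was 416 ± 15.3 (SD, n = 3), a narrower spread than that of the 9 factors above it. Cebpd (391 ± 40.9), Bhlhe40 (387 ± 78.3), Xbp1 (373 ± 4.72), Atf3 (336 ± 119) and Ybx1 (321 ± 8.21) completed the leading 15. Of the 14 neighbouring pairs in this order, 11 overlapped in range and 3 lay apart.

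The leading members of the developmental families had lower levels. Gata4, a cardiac and mesodermal zinc finger factor, was at 145 ± 4.14 and Gata6 at 35.4 ± 0.259, a ratio of 4.12 ± 0.145. The T-box factor Tbx20 was at 69.5 ± 12.3 and Tbx18 at 19.6 ± 1.77. Sox9 was at 83.9 ± 7.90, Meox1 at 160 ± 16.7, Prrx1 at 28.9 ± 2.11 and Snai2 at 50.2 ± 1.76. Of the effectors downstream of TGF-beta and mechanical load, Smad4 was at 88.4 ± 20.5, Smad3 at 51.7 ± 5.03, the coactivator Wwtr1 at 124 ± 11.3 and Srf at 18.2 ± 1.46. The homeodomain factor Irx6 was listed at 0 in all 3 libraries.

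**Figure D3:**
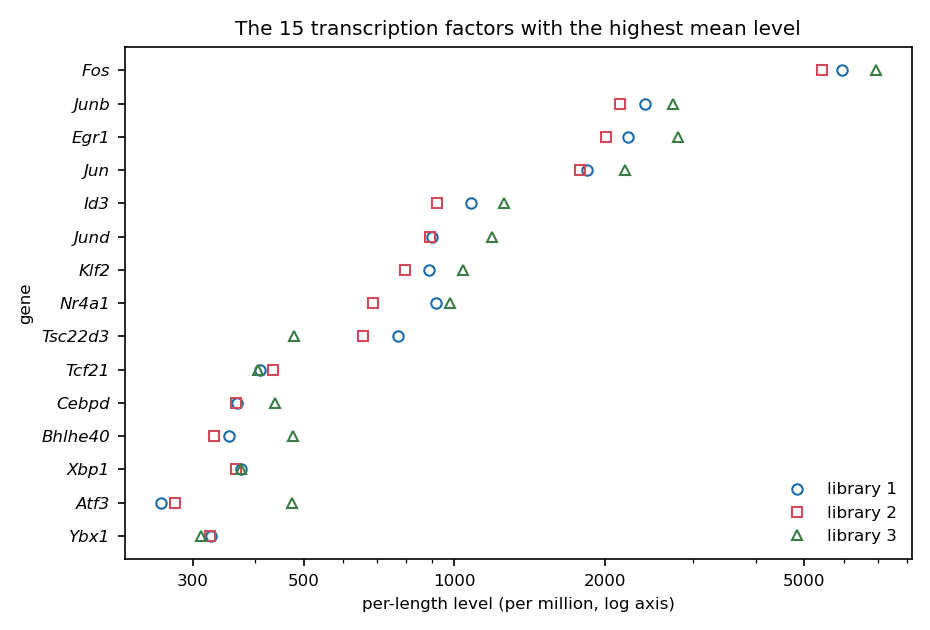
Per-length level (scaled to 1000000, log axis) of the 15 members of the transcription factor lists with the highest mean, 1 symbol for each of the 3 libraries. Fos leads at 6105, Tcf21 stands at rank 10 with 416 with its libraries close together, and library 3 is highest for most of the immediate early factors.

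Most immediate early genes were highest in library 3. The list of 29 genes with a level holds factors and feedback regulators that cells make without new protein synthesis after a stimulus, also during isolation from tissue. It held 2.73%, 2.47% and 3.20% of the level in libraries 1, 2 and 3. Of its 26 members with a level of at least 10, 24 were highest in library 3 and 2, Dusp1 and Hes1, in library 1. For comparison, 40.5% of all 8637 genes at that level were highest in library 3, 29.3% in library 1 and 30.3% in library 2. Among the other transcription factors at that level, 109 of 192 were highest in library 3. Ccn1 had levels of 2912, 2499 and 3137, the phosphatase gene Dusp1 had 2969, 2545 and 2818, and Atf3 had 259, 276 and 474. Zfp36, which encodes an RNA decay factor, had 1565, 1391 and 2038. Atf3 stood apart in library 3, and the other 3 genes were lowest in library 2. The median transcript length of the list was 2552 bases against 3078 for all genes compared, and the role of length or of cell isolation in these levels was not tested.

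Promoter stretches are printed for the 4 of 24 members with a promoter examined that hold TGACGT or a CArG box in the window shown, so they were picked for these letters. Other members, such as Jund, Maff and Csrnp1, hold none of the searched motifs there. The stretches are the 100 bases before the most upstream RefSeq start in GRCm38.p6, 5′ to 3′ on the gene's strand. Capitals mark the TATA box letters TATAAA, the cyclic AMP response core TGACGT or its reverse complement, and the CArG box, the binding site of Srf. Fos lies at chr12:85473790-85473889 (plus), Ccn1 at chr3:145649986-145650085 (minus), Atf3 at chr1:191183334-191183433 (minus) and Zfp36 at chr7:28379229-28379328 (minus).
Fos: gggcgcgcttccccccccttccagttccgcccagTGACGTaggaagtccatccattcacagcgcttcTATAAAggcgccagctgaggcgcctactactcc
Ccn1: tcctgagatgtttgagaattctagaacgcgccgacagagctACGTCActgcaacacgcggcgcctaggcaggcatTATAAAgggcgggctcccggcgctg
Atf3: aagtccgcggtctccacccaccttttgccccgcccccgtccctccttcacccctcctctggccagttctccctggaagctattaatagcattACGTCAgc
Zfp36: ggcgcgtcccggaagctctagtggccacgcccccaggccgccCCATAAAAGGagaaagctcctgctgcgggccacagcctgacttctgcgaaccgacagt
Fos and Ccn1 hold both TATAAA and TGACGT in this window, with TGACGT on the other strand in Ccn1. Atf3 holds TGACGT, also on the other strand, and Zfp36 holds the CArG box alone of these. In the longer window of 250 bases, searched on both strands, TGACGT was found in 6 of the 24 list members with a promoter in the RefSeq table, or 25%, against 9.03% of 13713 promoters of listed genes and 11.3% of 6926 promoters of genes at a level of at least 10. For the other motifs, the shares of both promoter sets follow in the same order. TATAAA was found in 4 of 24, or 16.7%, against 7.64% and 6.12%. The CArG box was found in 1 of 24, against 1.23% and 1.05%. The letters GGGCGG were found in 20 of 24, or 83.3%, against 51.8% and 61.9%. CCAAT was found in 8 of 24, or 33.3%, against 35.4% and 36.5%. TGANTCA, the AP-1 site, was found in 0 of 24, against 4.76% and 4.11%. For the 100 highest genes, 78 had a promoter in the RefSeq table, and TATAAA was found in 15, or 19.2%. A match is a description of letters in this window.

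Fibroblast markers stood far above the markers of the other cell classes; the cells are labelled cardiac fibroblasts. All 14 fibroblast markers were listed, and 12 of them reached a level of 100. Their median level was 1149, 1317 and 1252 in libraries 1, 2 and 3. In the order of the 14, 11 of 13 neighbouring pairs lay apart, and Col1a2 with Mfap5 and Col1a1 with Dpt overlapped. The lower members were the collagen receptor gene Ddr2 at 146 ± 16.8, Cdh11 at 16.2 ± 1.68 and Thy1 at 7.75 ± 0.323. Thy1, often used to sort fibroblasts, was below the median of all genes. The summed level of the fibroblast markers was 118 ± 7.75 times that of the mural markers, 162 ± 3.43 times that of the endothelial markers, 1533 ± 109 times that of the myeloid markers and 462 ± 33.5 times that of the cardiomyocyte markers. Gsn made up 62.2% of the fibroblast sum. In bulk libraries, fewer cells of a type and less RNA per cell cannot be told apart.

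Mural cells wrap small vessels, and their 18 markers had a median of 28.2 ± 1.95 over the libraries, or 18.7 with the median transcript length. The sum ranged from 931 to 1008, and without Pdgfrb and Ndufa4l2 it was 496. The pericyte channel genes Kcnj8 and Abcc9 were at means of 70.3 and 45.5, and Rgs5 at 51.5 ± 5.86. Of the contractile markers Acta2 was at 61.8 ± 10.9, Tagln at 24.6 ± 4.62, Myh11 at 2.31 ± 1.33 and Cnn1 at 0.367 ± 0.261. The part that mural cells had in these levels was not tested.

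Endothelial markers split into 3 high members and a low remainder, with a median of 0.917 ± 0.311, or 2.92 among genes with a mean of at least 10 normalized counts. Ly6c1 was at 293 ± 44.7, Tek at 223 ± 5.16 and Eng at 152 ± 6.94, and Ly6c1 also stands on the list of adventitial fibroblast genes. Of the 18 markers, 5 reached a level of 10. Among the lower ones, the junction gene Cdh5 was at 0.193 ± 0.0257 and Pecam1 at 2.57 ± 0.351. The VEGF receptor gene Kdr was at 0.508 ± 0.326 and Vwf at 0.108 ± 0.0810. The sum of the 18 markers ranged from 676 to 742, and without the 3 high members it was 47.4. Of 6 lymphatic markers, Pdpn was at 67.3 ± 7.06, while Prox1, Flt4 and Lyve1 were below 1 and Mmrn1 was 0 in 2 libraries.

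Myeloid markers had a median of 1.81 ± 0.128 over 18 of 20 markers that were listed, or 1.02 without division by length, and the sum ranged from 71.3 to 81.2. Cd74 (29.8 ± 2.28), Cd14 (8.01 ± 0.186) and Lyz2 led, the last with 17.5 in library 1 and less in the others. The pan-leukocyte gene Ptprc was at 0.210 ± 0.0757, the macrophage gene Adgre1 at 0.628 ± 0.106, and S100a9 was listed at 0 in all 3 libraries. Of the lymphoid markers, 3 of 14 were listed, with Cd3d at 2.74 ± 0.315, Cd4 at 0.246 ± 0.114 and Cd8a at 0.0944 ± 0.0236.

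Cardiomyocyte markers had a median of 3.48 ± 0.489 over 18 of 20 markers that were listed, or 1.16 without division by length. Atp2a2, the calcium pump of the sarcoplasmic reticulum that is also found in other cells, was at 191 ± 9.54 and made up 75.8% of the sum. Without it the 17 other genes summed to 60.7. Tnnt2 was at 9.17 ± 1.29, Mb at 8.23 ± 0.264, Myl2 at 4.92 ± 1.52, Myh6 at 0.522 ± 0.0254 and Ttn between 0.0102 and 0.0147. Of the Schwann and glial markers, Scn7a was at 207 ± 38.1 and Cdh19 at 50.2 ± 10.7. Pf4, a platelet marker, was at 18.9 ± 1.33, against 1.65 ± 0.192 for the platelet integrin Itga2b. Epicardial Wt1 was at 0.136 ± 0.0989, and the other listed epicardial marker, Lrrn4, at 0.0952 ± 0.0667. Of the adipocyte markers 4 of 10 were listed, with a median of 4.21. Fabp4, which also stands on the endothelial list, was at 19.8 ± 2.71 and made up 70.2% of their sum, Lipe was at 7.71 ± 1.06, Car3 at 0.707 ± 0.505, and Retn was listed at 0 in all 3 libraries.

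**Figure D4:**
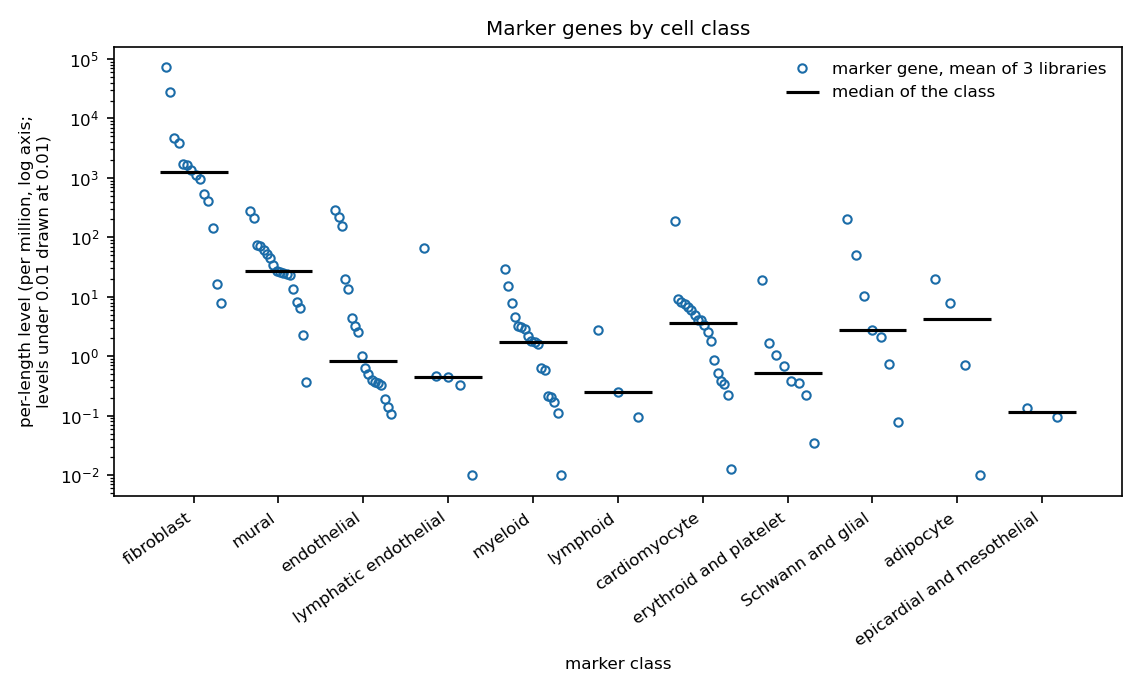
Per-length level (scaled to 1000000, log axis, levels under 0.01 drawn at 0.01) of each marker gene as the mean of 3 libraries, grouped by cell class, with a bar at the class median. Fibroblast markers have a median above 1000, the mural median is near 27, and the medians of the other classes lie below 5, some with 1 to 3 members far above the median.

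Genes listed for resting and adventitial fibroblasts had higher median levels than genes listed for activation. Their medians were 677, 413 and 50.3, against 12.5 for all genes. The lists were chosen with earlier results of these data known, so this order describes the chosen genes alone. The 23 genes of resting cardiac fibroblasts held 9.84% ± 0.368 of the level, of which Gsn made up 73.3%, and 20 of the 23 reached 100. After Gsn came Gpx3, Smoc2 and Htra3, each already named above. The 17 adventitial genes held 0.918% ± 0.070, led by the stem cell antigen Ly6a (1914 ± 360), Mfap5, Pi16 (1143 ± 85.9), Cd248 (681 ± 74.5) and Gfpt2 (649 ± 50.1). Ly6a had levels of 2293, 1871 and 1577, with no 2 libraries close together. The 22 activated fibroblast genes held 0.282% ± 0.027. Postn, a matricellular gene that marks activation, was already present at 407, 450 and 609, and Cilp at 323, 315 and 453. Both were highest in library 3. Mfap4 was at 710 ± 108, Col8a1 at 308 ± 30.1 and Meox1 at 160 ± 16.7. Genes of mitosis and replication held 0.023% ± 0.001, led by Pcna at 60.2 ± 0.198 and the replication helicase gene Mcm6 at 38.2 ± 3.57.

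Libraries differed little for most genes. The median coefficient of variation of a gene over the 3 libraries was 7.49%, and 153 of the 11401 genes with a mean of at least 100 normalized counts, or 1.34%, differed by more than 2-fold between the highest and lowest library. The largest ratio was 14.2, for the pseudogene Gm6750, with 440, 432 and 30.01 normalized counts. It was followed by H2-T-ps (10.3), Rps18-ps4 (8.72) and Gm36157 (8.48). Gm6750, H2-T-ps and Rps18-ps4 resemble other gene copies, so how reads were divided among copies is uncertain. Of the protein-coding genes, Rbm46 had 40.8, 236 and 32.4 normalized counts, Ier5l 126, 555 and 836, Znrf2 51.6, 175 and 344, and Cnnm3 288, 1052 and 1548. Supt16, a histone chaperone subunit, had 2549, 470 and 2823, so that library 2 alone was low. Col6a5, a type VI collagen chain, had 198, 210.5 and 35.4, and here library 3 alone was low. The lists moved by less, and mostly within 0.2 of their mean share on the log2 scale. Fibrillar collagens were highest in library 2 (0.913%, against 0.759% and 0.793%), and their median transcript length was 6119 bases. Laminins and basement membrane linkers held 0.940%, 0.971% and 1.08% in libraries 1, 2 and 3, and their median transcript length was 5750 bases. Smoc2, which made up 46.6% of that list's share, has a transcript length of 2832 bases. Among the 2782 genes with the longest transcripts, the median log2 ratio to the other libraries was -0.13 in library 1, 0.01 in library 2 and 0.10 in library 3, and among the 2782 with the shortest it was 0.08, -0.02 and -0.07. The part of transcript length in these list values was not tested.

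**Figure D5:**
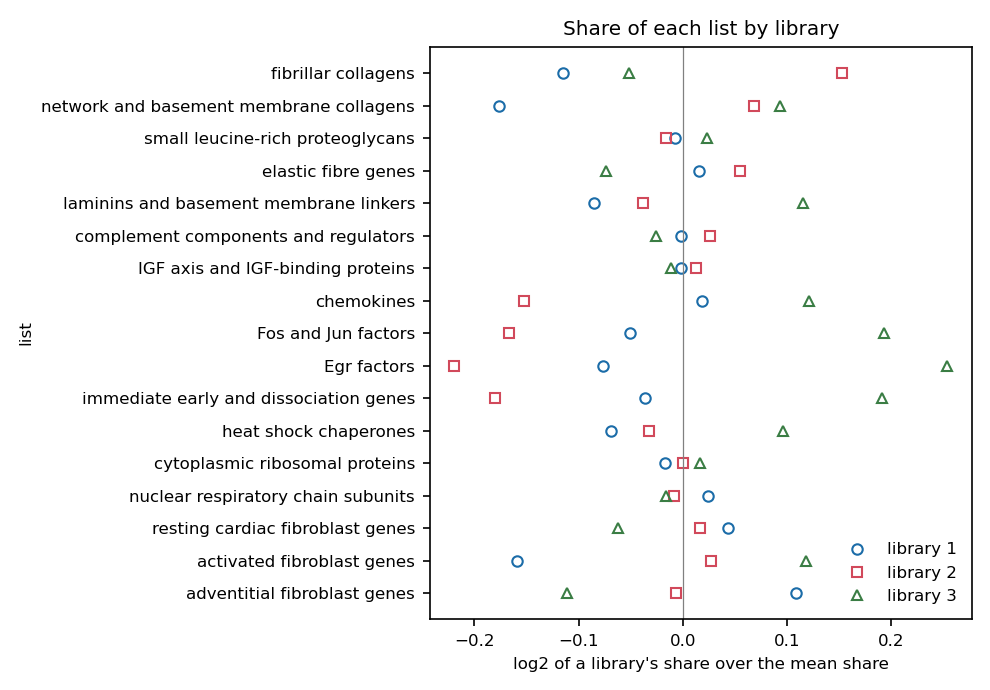
Share of the level held by 17 lists in each library, as log2 of the library's share over the mean share, 1 symbol per library. Library 3 is highest and library 2 lowest for immediate early genes, Fos and Jun factors and Egr factors, and library 2 is highest for fibrillar collagens.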

How the data were processed

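RNA was taken with a miRNeasy micro kit and made into cDNA with SMART-seq V4, per the labels' protocols. Per the submitters' processing notes, kallisto, DESeq2 and GRCm38 were used; versions and gene annotation are not stated in the labels. Each deposited value is a signal per gene, an estimated count that the authors normalized, and not a whole read number, so the read depth is unknown and no count model was fitted. The other 2 of 3 tables were not used. Groups came from the sample labels.

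Each value was divided by the length of the principal transcript in GENCODE vM21, or the longest where none is marked, matched by symbol for 16036 of 18634 genes, 219 through another symbol and 14084 with a principal transcript. Genes without a length held 1.24% to 1.41% of the normalized counts. A symbol that names more than 1 gene took the length of its only protein-coding gene. Where there was no single such gene, as for Aldoa, the symbol has no level. Means and SDs are over 3 libraries, no filter was applied to levels, and no test was run. Promoter sequences came from a RefSeq table on GRCm38.p6. Python 3.11.15 with pandas 2.3.3, numpy 2.4.6, scipy 1.17.1 and matplotlib 3.10.9 was used, and the computation was tested on simulated data.

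The libraries and the 79 gene lists were chosen with earlier results of these data known. Named genes are the 25 highest, the leading 5 of each list and any listed at 0, the 15 highest transcription factors, the 10 with the largest ratio between libraries at a mean of at least 100, and all cell type markers; some genes that the rule took are left out of the text and plots. Col5a2, Col11a1, Col11a2, Lama2, Tgfb1, Pdgfc, Hes1 and Zfp36 fall outside this rule and were chosen after their values were seen. Markers and list members absent from the table are not analysed here. Alternatives varied the transcript length, the length division, the filter, the denominator and the pseudocount, and left out each library.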

Additional observations from a re-analysis of the deposited data

How the results depend on the processing

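Of 50 alternative values over 10 results, 23 moved by less than 1 SD and 27 by more, and the class medians kept fibroblast above mural, and mural above endothelial, myeloid and cardiomyocyte, under each alternative in which they were computed. With the longest transcript the matrix share was 10.9%, the signalling share 4.67%, the mural median 31.7 and the myeloid median 2.02. With the median transcript length the signalling share was 4.42%, the share of the 100 highest genes 33.9%, and the medians 1605 (fibroblast), 18.7 (mural), 1.17 (myeloid) and 2.53 (cardiomyocyte). Without length division the shares were 14.3% (matrix), 5.08% (signalling), 3.59% (transcription factors) and 30.5% (100 highest), and the medians 1729 (fibroblast), 1.02 (myeloid) and 1.16 (cardiomyocyte). With genes of a mean of at least 10 normalized counts alone, the endothelial median was 2.92 and the myeloid 2.10, since low markers drop out. Without ribosomal protein genes the shares were 12.3% (matrix), 4.66% (signalling) and 33.1% (100 highest). No mitochondrially encoded gene was listed. Correlation between libraries was 0.990 at a pseudocount of 10 and 0.978 with no filter. Leaving out each library gave ranges of 12.0% to 12.1% (matrix), 4.53% to 4.56% (signalling), 2.97% to 3.25% (transcription factors), 32.1% to 32.5% (100 highest), 1200.3 to 1285 (fibroblast), 27.3 to 29.2 (mural), 0.757 to 1.07 (endothelial), 1.76 to 1.88 (myeloid), 3.21 to 3.69 (cardiomyocyte) and 0.983 to 0.984 (correlation). Chosen after seeing the data, the transcription factor share was 1.44% without immediate early genes, the matrix share 9.28% without Dcn and the share of the 100 highest 27.0% without Gsn. No paired analysis was possible because 1 group is described and no result comes from a test. With unknown read depth, low levels cannot be given a counting error.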

Other observations

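On the per-length scale, genes of iron storage, protein synthesis and energy supply stood high beside the secreted products. The ferritin genes Ftl1 and Fth1 together held 0.833%, 0.757% and 0.773% of the per-length level in libraries 1, 2 and 3, lowest in library 2. The 86 cytoplasmic ribosomal protein genes held 2.47% ± 0.028 (SD, n = 3), led by Rpl13 at a level of 1123 ± 19.7. Nuclear genes of the respiratory chain held 1.69% ± 0.025, led by the ATP synthase gene Atp5b at 914 ± 24.4. With no division by length, the ribosomal and respiratory lists held less, 0.852% and 0.673% of the normalized counts. Their median transcript lengths were 882 and 865 bases, against 3078 for all genes compared. Chaperones of the endoplasmic reticulum, where secreted proteins fold, held 0.646% ± 0.008, with Pdia3 at 832 ± 5.11 and Hspa5 at 803 ± 46.3. Glycolysis enzymes held 0.361% ± 0.014, led by Gapdh at 1165 ± 69.7.

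Some single genes outside the naming rule were chosen after their values were seen. The antisense gene 5033421B08Rik, on chromosome 12 from 8511201 to 8562681 on the plus strand, stood just after the 25 highest genes with levels of 2889, 2254 and 3203, lowest in library 2 and highest in library 3. Strand was not stated for the counting, so reads of overlapping genes on the other strand cannot be told apart from its own. Il6, which encodes an inflammatory cytokine, had levels of 33.2, 28.0 and 83.8, with library 3 well above the others. Protein-coding genes held 98.5% of the level.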
